A study of Mus musculus with 10 samples.

Results

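The probes of 5 immune genes were followed in RNA of mouse brain extracellular vesicles: Il2, Gsdmd, H2-Q7, H2-M2 and Mzb1. They were chosen as the repeated probes of the array, each printed at 10 spots, whose RefSeq accession names one of these genes, and they are 5 of the 46 genes that have a named probe among 60823 probes in all. All 5 passed the filter on dim probes, as did 30 other named genes, and 49363 of the 60823 probes did so in all. H2-Q7 and Mzb1 were above background on 7 of the 10 arrays and the other 3 genes on all 10. Female C57BL/6J mice, an inbred strain, were kept in ethanol vapor or in room air on 5 days of each week, 8 h at a time, over 4 weeks. The whole brain was then taken and its extracellular vesicles, membrane-bound particles released by cells, were spun down by ultracentrifugation. Per the labels all mice were of that strain and sex, no allele or other agent is named, and neither age nor the number of animals behind a sample is given. Total RNA was amplified and labelled with Cy3 for 10 single-colour arrays, 5 of room air (replicates 1, 2, 3, 5 and 9) and 5 of ethanol vapor (replicates 4, 6, 7, 8 and 10). Whether samples are separate animals is not stated, so p-values cover only the spread among these 10 samples, part of which may be technical.

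The array headers put the 10 arrays into 2 scan sets, each sharing 1 scan identifier and 1 detector setting (352 V in scan set 1 and 355 V in scan set 2). Room air has 3 of its arrays in scan set 1 and 2 in scan set 2, and ethanol has 1 and 4, so the groups are spread unevenly. Between 62.1% and 74.5% of spots were well above background in scan set 1 and between 75.9% and 87.9% in scan set 2 (exact permutation p = 0.0048 over 210 splits, two-sided, the smallest they can give). The groups differed in that share by 1.89 percentage points (exact permutation p = 0.770, two-sided). Of the markers fixed for brain cells, Apoe of astrocytes read between 0.51 and 0.98 and Mbp of oligodendrocytes between 0.75 and 1.53 on the 10 arrays, as log2 intensity minus the 75th percentile of each array. Markers of neurons, microglia, T cells, B and plasma cells, blood and vesicles had no named probe, so the vesicle identity of the samples was not checked here. Brain vesicle RNA pools many cell types, and fewer vesicles of a cell type cannot be told apart from less RNA of a gene in each vesicle.

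The 5 genes belong to different arms of immunity. Interleukin 2, encoded by Il2, is secreted by activated T cells and drives their growth through its receptor. Gasdermin D, encoded by Gsdmd, is cut by inflammatory caspases, and the freed fragment forms membrane pores in pyroptosis, a lytic cell death that is studied in microglia in the brain. H2-Q7 and H2-M2 encode nonclassical class I histocompatibility molecules, relatives of the molecules that present peptides to T cells. Mzb1 encodes an endoplasmic reticulum protein of B cells and plasma cells that assists antibody secretion.

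None of the 5 probes passed the adjusted threshold between ethanol and room air vesicles. Il2 and Gsdmd read 5.18-fold and 4.99-fold lower in scan set 2 than in scan set 1, and H2-M2 did not pass the threshold between the sets. These folds follow the scaling. Over the alternatives run the log2 difference was -3.26 to -1.86 for Il2 and -3.21 to -1.85 for Gsdmd. H2-Q7 and Mzb1 read higher in scan set 2, but no fold is given, since on 3 of 4 arrays of scan set 1 their probes were not above background and probes named as negatives read higher in scan set 2 as well. With the scan set as a block, the differences between ethanol and room air ran from -0.19 for H2-M2 to 0.10 for H2-Q7 on the log2 scale. Levels below are log2 processed intensity minus the 75th percentile of the array, averaged over the 10 spots of a probe, and are not compared between genes.

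The probe of Il2 (A_51_P114222, NM_008366) was well above background at every one of its spots. Its level in room air was 4.27, 3.87 and 3.52 on replicates 1, 2 and 3, and 1.56 and 1.69 on replicates 5 and 9. In ethanol it was 4.13 on replicate 4, and 1.43, 1.56, 1.39 and 1.97 on replicates 6, 7, 8 and 10. The high arrays were the 4 of scan set 1 and the low arrays the 6 of scan set 2, and the groups overlapped over nearly their whole range. Room air averaged 2.98 ± 1.27 (SD, n = 5), against 2.10 ± 1.16 (SD, n = 5) after ethanol. The difference in Il2 level, ethanol minus room air, was -0.88 (SE 0.68, 95% interval -2.39 to 0.62; adjusted p = 0.530 in limma). It was 0.064 (SE 0.19, 95% interval -0.36 to 0.49) with the scan set as a block, 0.24 within scan set 1 and -0.035 within scan set 2. The value within scan set 1 rests on ethanol replicate 4 alone, here and for each gene below. The blocked adjusted p was 0.946 in limma.

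Gsdmd (A_51_P172231, NM_026960) was also well above background at all of its spots. Room air replicates 1, 2 and 3 read 1.83, 1.37 and 1.31, and replicates 5 and 9 read -0.57 and -0.74. Ethanol replicate 4 read 1.83, and replicates 6, 7, 8 and 10 read -0.65, -0.85, -0.78 and -0.64. As for Il2, every array of scan set 1 was high and every array of scan set 2 low, whichever the group. Gsdmd averaged 0.64 ± 1.20 (SD, n = 5) for room air, against -0.22 ± 1.15 (SD, n = 5) after ethanol. The difference was -0.86 (SE 0.66, 95% interval -2.31 to 0.60; adjusted p = 0.530 in limma). The block gave 0.072 (SE 0.16, 95% interval -0.28 to 0.43; adjusted p = 0.921), with 0.33 within scan set 1 and -0.073 within scan set 2. The spread left in the fit fell from an SD of 1.17 to 0.20 for Gsdmd, and from 1.21 to 0.28 for Il2, when the scan set was a term.

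**Figure D1:**
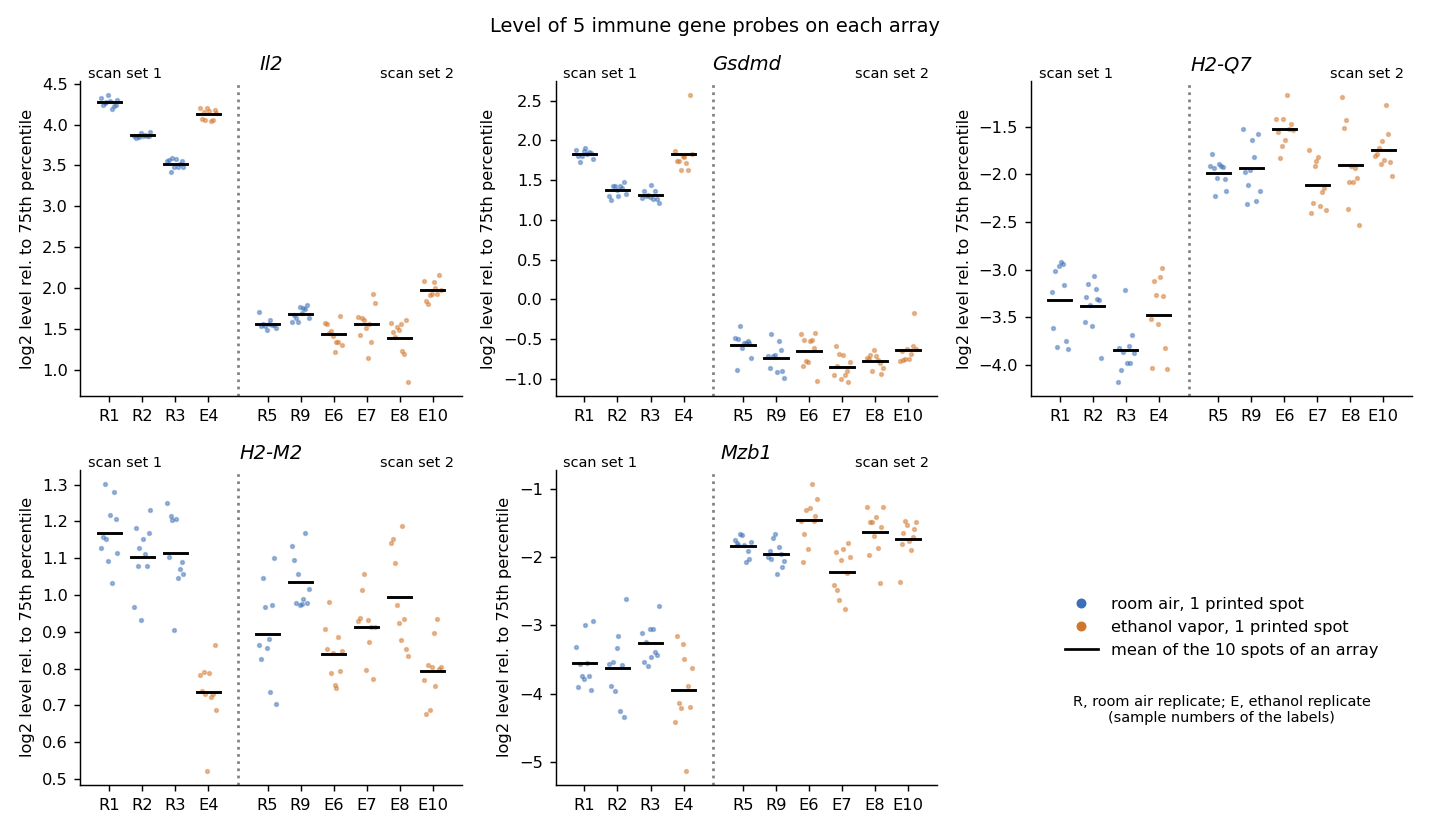
Level of each gene's probe on each array (y axis, log2 processed intensity minus the array's 75th percentile), with 1 point per printed spot and a line at the mean of 10 spots; arrays are ordered by scan set and marked R for room air and E for ethanol vapor. Il2 and Gsdmd step down and H2-Q7 and Mzb1 step up from scan set 1 to scan set 2, while H2-M2 stays between 0.74 and 1.17 on all 10 arrays.

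The class I gene H2-M2 (A_51_P191463, NM_001347387) had the most even readings. It read 1.17, 1.10, 1.11, 0.89 and 1.04 on room air replicates 1, 2, 3, 5 and 9, and 0.74, 0.84, 0.91, 0.996 and 0.79 on ethanol replicates 4, 6, 7, 8 and 10. Most ethanol arrays lay below the room air arrays, but ethanol replicates 7 and 8 read above room air replicate 5, so the groups overlapped. H2-M2 averaged 1.06 ± 0.11 (SD, n = 5) for room air, against 0.86 ± 0.10 (SD, n = 5) after ethanol. Ethanol minus room air was -0.21 (SE 0.17, 95% interval -0.58 to 0.16), or 1.15-fold lower. That exceeds the SD between arrays of either group, but the adjusted p was 0.533 in limma and the unadjusted p 0.243. The difference hardly moved with the block, to -0.19 (SE 0.13, 95% interval -0.49 to 0.10; adjusted p = 0.679), and was -0.39 within scan set 1 and -0.080 within scan set 2. The SE exceeds what these arrays alone show (an SD of 0.10 left in the fit), because limma draws each probe toward the spread of all probes, 0.50 without the scan set and 0.28 with it. The sign of the H2-M2 difference also rested on the scaling, since quantile normalization gave 0.0040. Scaling on only those probes that exceed background on each array gave 0.056, although with the block both scalings kept the difference below 0. How far the block moved it rested on the scaling too, since median scaling gave -0.64 without the block and -0.27 with it.

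H2-Q7 (A_51_P262079, NM_010394), the other class I gene, read low on all arrays. Its level was -3.32, -3.38, -3.85, -1.99 and -1.94 on room air replicates 1, 2, 3, 5 and 9. On ethanol replicates 4, 6, 7, 8 and 10 it was -3.47, -1.53, -2.11, -1.91 and -1.74. The 4 arrays of scan set 1 were the low ones and the groups overlapped. Room air averaged -2.89 ± 0.88 (SD, n = 5), against -2.15 ± 0.77 (SD, n = 5) after ethanol. The H2-Q7 difference of 0.74 (SE 0.48, 95% interval -0.31 to 1.79; adjusted p = 0.527 in limma) became 0.10 (SE 0.17, 95% interval -0.27 to 0.48; adjusted p = 0.881) with the block. It was 0.043 within scan set 1 and 0.14 within scan set 2. H2-Q7 has close relatives in the Q region of the histocompatibility complex, and the probe sequence was not used here, so how far the probe separates them is uncertain.

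A stretch of the promoter is shown for both class I genes because it holds the longest exact run of bases that their promoter windows share. The sequences are those of RefSeq for GRCm38.p6, whereas the array headers name mm9, so no array measurement is tied to these coordinates. Of the 5 genes, 3 had an entry in the promoter table, and the pair below shares the run in capitals, GGACACTGATGAC, at 73 to 61 bases upstream of the H2-Q7 start and 103 to 91 bases upstream of the H2-M2 start. The H2-Q7 stretch lies at chr17:35439052-35439124 on the plus strand and the H2-M2 stretch at chr17:37483615-37483687 on the minus strand, both written 5′ to 3′ on the strand of the gene.
H2-Q7: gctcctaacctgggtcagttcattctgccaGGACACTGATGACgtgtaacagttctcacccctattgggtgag
H2-M2: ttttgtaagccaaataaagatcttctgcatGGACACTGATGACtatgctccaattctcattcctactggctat

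The run, searched on both strands, was found in 5 of 32851 promoter windows of the same length (0.0152%). It was chosen as the longest exact run shared by the H2-Q7 and H2-M2 windows, so both were certain to hold it. The other windows with the run were those of H2-D1, H2-Q4 and H2-Q6, which are class I genes too. The list has 11 H2 genes with a window. A match of letters describes these windows only. The levels of the pair had a Pearson r of -0.22 over the 10 arrays after the mean of each scan set was subtracted, and of -0.53 over the 6 arrays of scan set 2, given as a description over few arrays.

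Mzb1 (A_51_P452153, NM_027222) read low as well. On room air replicates 1, 2, 3, 5 and 9 its level was -3.55, -3.62, -3.26, -1.83 and -1.96. On ethanol replicates 4, 6, 7, 8 and 10 it was -3.95, -1.46, -2.21, -1.64 and -1.73. The lowest array, ethanol replicate 4, and the next 3 were those of scan set 1, and the groups overlapped. Mzb1 averaged -2.84 ± 0.88 (SD, n = 5) for room air, against -2.20 ± 1.02 (SD, n = 5) after ethanol. Ethanol minus room air was 0.65 (SE 0.54, 95% interval -0.55 to 1.84; adjusted p = 0.541 in limma). With the block it was -0.084 (SE 0.20, 95% interval -0.51 to 0.34; adjusted p = 0.924). Within scan set 2 it was 0.13. Within scan set 1 it was -0.47, a value that rests on ethanol replicate 4 alone, where 0 of 10 spots were well above background, so no direction is read from it.

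Among the 49363 tested probes, 0% passed the adjusted threshold of 0.05 between ethanol and room air in limma, without the scan set and with it as a block, and so did none of the 5 genes. Before adjustment 2485 probes had p under 0.05 without the block and 4242 with it, and none of the 5 genes did in either fit. Each array other than ethanol replicate 7 moved the unblocked count by over 1.5 times when left out, from 605 without room air replicate 3 to 18959 without ethanol replicate 4, and the blocked count was 2081 without ethanol replicate 4. The groups did not overlap for 0.51% of 49028 probes and for none of the 5 genes. With the scaling used for the levels above, the blocked intervals of all 5 genes spanned less than 2-fold up or down. Their widest reach was -0.51, for Mzb1. With no scaling between arrays the blocked H2-M2 difference was -0.42 (SE 0.24), so these limits depend on the scaling. The probes of H2-Q7 and Mzb1 read close to those that target no gene, so their intervals do not bound a change in either transcript. The median difference over all tested probes was 0.26 without and 0.037 with the block. Relative to that blocked median the differences were 0.028 for Il2, 0.035 for Gsdmd, 0.068 for H2-Q7, -0.23 for H2-M2 and -0.12 for Mzb1. A scaling by 1 constant per array largely cancels in these relative values, so among the scalings only quantile normalization could move them much. It gave relative values of 0.10 for Il2, -0.024 for Gsdmd, 0.059 for H2-Q7, -0.11 for H2-M2 and -0.088 for Mzb1. With normexp background correction the blocked median was 0.082. Il2 (0.037) and Gsdmd (0.077) lay below it and Mzb1 (0.10) above it, so their relative signs turned. H2-Q7 (0.15) and H2-M2 (-0.19) kept theirs.

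**Figure D2:**
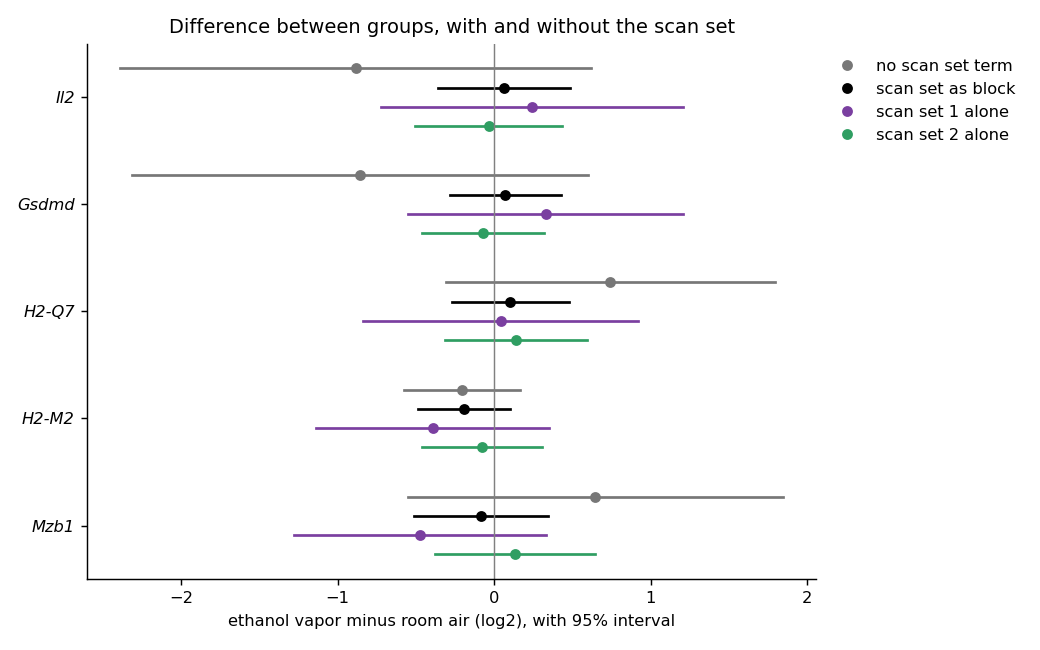
Ethanol vapor minus room air for each gene (x axis, log2, with 95% intervals from limma) in 4 fits: without the scan set, with it as a block, and within each scan set. Without the scan set Il2 and Gsdmd lie at -0.88 and -0.86 and H2-Q7 and Mzb1 at 0.74 and 0.65 with wide intervals; with the block all 5 lie between -0.19 and 0.10, and every interval includes 0.

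The scan sets themselves differed for most probes. Between scan set 2 and scan set 1, with the group in the fit, 75% of the 49363 probes passed the threshold, 27877 higher and 9160 lower, so a difference between the sets is no mark of the 5 genes. That split followed the scaling: when arrays were scaled on their median, 12000 were higher and 19455 lower, and quantile normalization gave 14699 and 12774. Il2 differed by -2.37 (SE 0.20; adjusted p = 1.57e-06 in limma) and Gsdmd by -2.32 (SE 0.17; adjusted p = 6.52e-07). H2-Q7 differed by 1.59 and Mzb1 by 1.83, given with no test: both passed the filter on dim probes through scan set 2, where all 6 arrays were above background against 1 of 4 in scan set 1, so they entered the fit because they were high there. Their differences were also 0.65 and 0.72 with normexp background correction, and 0.29 and 0.49 with quantile normalization. H2-M2 differed by -0.038 (SE 0.14, 95% interval -0.34 to 0.26; adjusted p = 0.813), and by -0.93 with scaling on the median or 0.43 with scaling on only those probes that exceed background on each array, both of which passed. The scan sets did not overlap for 61.8% of probes, and for 4 of the 5 genes, H2-M2 being the exception; for H2-Q7 and Mzb1 the filter bears on that too. The median probe was 0.68 higher in scan set 2, and relative to it the differences were -3.05 for Il2 and -2.99 for Gsdmd, or -1.94 and -2.31 after quantile normalization. For H2-Q7 and Mzb1 the relative values were 0.92 and 1.15, or 0.21 and 0.41 after quantile normalization. The labels name nothing else that sets the arrays of the scan sets apart, and a cause was not tested.

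Il2 and Gsdmd had the lowest and next lowest scan set difference of the 35 named and tested genes, and the oxidase gene Duox1 followed with -2.11. Signs of the group and scan set differences matched for 5 of the 5 immune genes and for 27 of the 30 others, and with the block for 2 of 5 and 20 of 30. With 3 of 5 room air arrays but 1 of 5 ethanol arrays in scan set 1, the group difference without the block contains part of the scan set difference. The unblocked matches thus follow in part from the layout and are no finding about the genes. That of H2-M2 rests on a scan set difference of -0.038, whose sign turned with other scalings. The median size of the group difference over the 5 genes was 0.74 without and 0.084 with the block, against 0.35 and 0.099 over the 30 others.

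**Figure D3:**
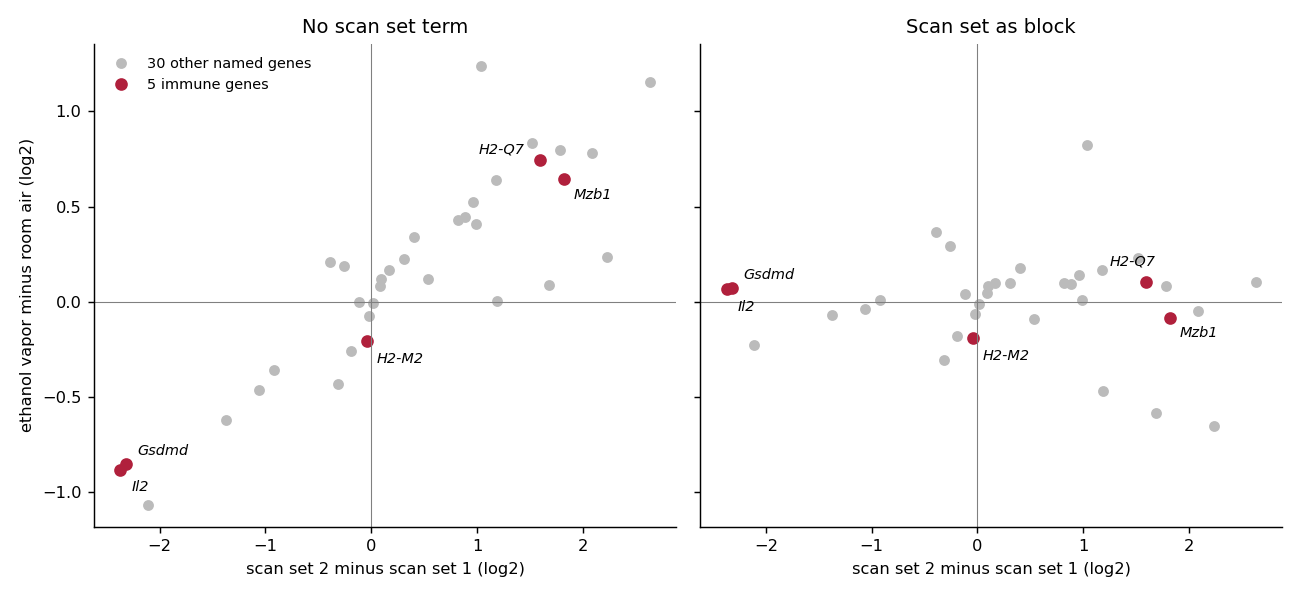
Ethanol vapor minus room air (y axis, log2) against scan set 2 minus scan set 1 (x axis, log2) for the 5 immune genes and 30 other named genes, without (left) and with (right) the scan set as a block. On the left the 5 immune genes have the sign of their scan set difference, which the uneven layout in part fixes. On the right they lie between -0.19 and 0.10, with Il2 and Gsdmd near -2.4 and -2.3 on the x axis.

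The readings of H2-Q7 and Mzb1 were close to those of probes that target no gene. At H2-Q7, 13 of 40 spots were well above background in scan set 1 and 60 of 60 in scan set 2, and at Mzb1 14 of 40 and 59 of 60. By array, at least 0.5 of the spots were so on 1 of 4 arrays of scan set 1, room air replicate 3, for both genes. The array also carries 15 probes named as negatives that are not among its control spots, each at 3 spots. Their median level was -4.34 ± 0.33 (SD, n = 4) over the arrays of scan set 1 and -2.17 ± 0.18 (SD, n = 6) over those of scan set 2. H2-Q7 stood above that median by 0.83 ± 0.29 (SD, n = 4) in scan set 1 and 0.30 ± 0.18 (SD, n = 6) in scan set 2, and Mzb1 by 0.74 ± 0.44 (SD, n = 4) and 0.36 ± 0.23 (SD, n = 6). On every array at least 1 of these negatives read higher than H2-Q7 and than Mzb1. A spot that passes the background test is thus no evidence here that either transcript was present, and the part of such signal in the scan set difference was not tested. Il2 and H2-M2 read above the highest of the 15 negatives on all 10 arrays. Gsdmd did so on all 4 arrays of scan set 1 and on 5 of 6 of scan set 2, where it stood between 1.26 and 1.76 above their median. Gsdmd exceeded the highest of 10 control probes for the viral gene E1A on all 4 arrays of scan set 1 but on 0 of 6 of scan set 2, where it stood 0.61 to 1.24 above their median. The E1A probes are positive controls, unlike the 15 negatives. Whether RNA matching them was added was not checked here, so their level need not be background alone. These control probes had a median level of -3.54 ± 0.32 (SD, n = 4) in scan set 1 and -1.58 ± 0.22 (SD, n = 6) in scan set 2. With this scaling their change between the scan sets had the direction of H2-Q7 and Mzb1 and was opposite to that of Il2 and Gsdmd. A link between these changes was not tested.

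**Figure D4:**
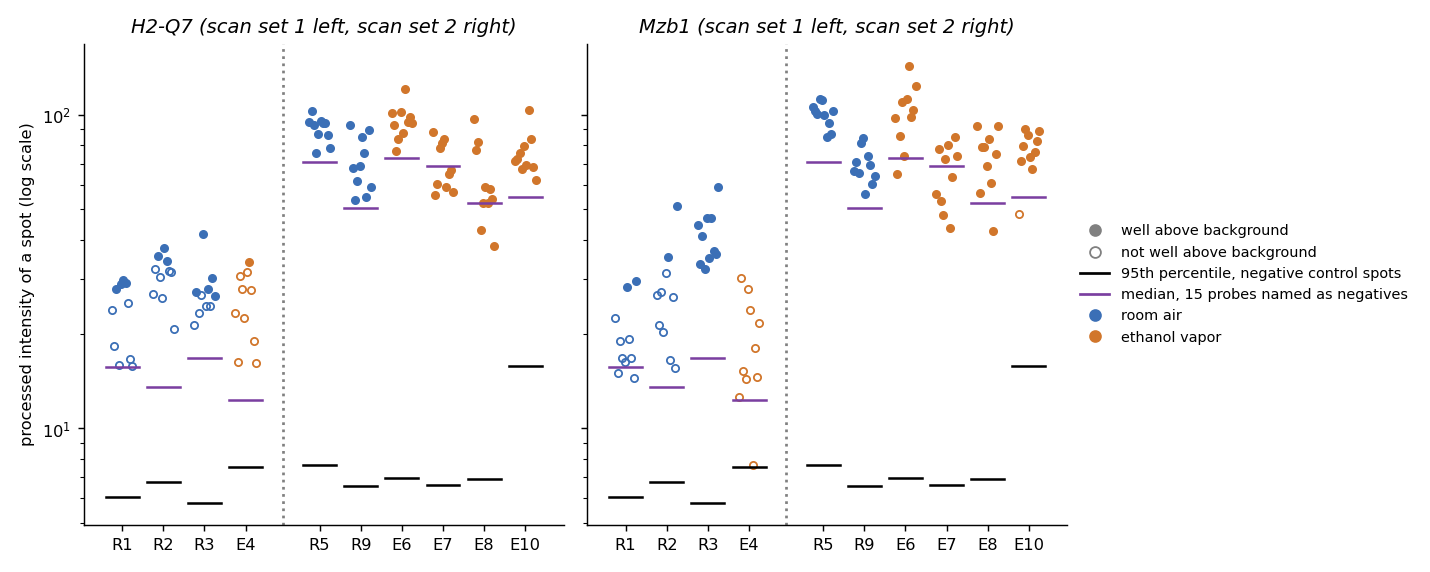
Processed intensity of each of the 10 spots (y axis, log scale) of H2-Q7 (left) and Mzb1 (right) on each array, filled where well above background, with lines at the 95th percentile of the negative control spots and at the median of 15 probes named as negatives. All spots lie over the control line, but in scan set 2 the median of the named negatives, between 50.3 and 72.8, runs through or just under the spots of both genes.

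The printed spots show how well each reading was fixed within an array. The SD between the 10 spots of Il2 ran from 0.020 to 0.064 on the arrays of scan set 1 and from 0.061 to 0.23 on those of scan set 2. For Gsdmd the range was 0.055 to 0.27 and 0.095 to 0.20, and for H2-M2 0.084 to 0.11 and 0.073 to 0.13. The dim probes scattered more, up to 0.42 for H2-Q7 and 0.60 for Mzb1, the latter on ethanol replicate 4, where 0 of 10 spots were well above background. In linear terms the mean processed intensity of Il2 was 4336.9 to 4680.8 in scan set 1 and 586 to 1051 in scan set 2, and that of Gsdmd was 798 to 970.0 and 129 to 241. For H2-M2 it was 447 to 843 and 434 to 664, for H2-Q7 23.1 to 30.7 and 61.3 to 95.4, and for Mzb1 18.6 to 41.2 and 65.4 to 102. Of the 500 spots of the 5 genes, 0 were saturated or marked as non-uniform and 18 were marked as outliers among their repeats, and leaving those out moved no call.

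Beyond the 5 genes, the pathways they belong to had almost no named probes. Of 18 genes of interleukin 2 signalling, 23 of pyroptosis and inflammasomes, 26 of class I histocompatibility, 16 of B and plasma cells and 22 of interferon and innate sensing, the named ones were Il2, Gsdmd, H2-Q7 with H2-M2, Mzb1 and 0 respectively. No other receptor, caspase, antigen processing or antibody gene of those lists could therefore be read. In limma 0 of the named list genes passed in either direction, beside 0% of all tested probes.

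The named genes whose levels ran most like each member were found by Pearson r over the 10 arrays after the mean of each scan set was subtracted, among 34 others. All points share arrays and their scaling, so these are descriptions. Il2 ran most like Uhrf1bp1l (r = 0.74) and Gsdmd (0.71), but within scan set 2 alone, over 6 arrays, the values were 0.36 and 0.25. Gsdmd ran most like Gpi1, a glycolytic enzyme (0.76, and 0.57 within scan set 2), and Rps4l (0.76 and 0.044). H2-Q7 ran most like Gsta4, a glutathione transferase (0.98 and 0.97), and Lhfp (0.95 and 0.94). H2-M2 ran most like Olfr166, an olfactory receptor gene (0.69 and 0.79), and Lhx1, a homeobox gene (0.67 and 0.63). Mzb1 ran most like Alkbh4 (0.64 and 0.91) and the small heat shock gene Hspb7 (0.63 and 0.85). Only for H2-Q7 were both values above 0.9 with both of its nearest genes. On every array of scan set 2, Lhfp read below the median of the probes named as negatives, at -2.76 to -2.23. H2-Q7 stood above that median by only 0.30 ± 0.18 (SD, n = 6). Gsta4 read above it on every array of scan set 2, at -1.30 to -0.77. Whether signal that is not from these transcripts gave those r values was not tested.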

How the data were processed

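Members, lists and tests were chosen with earlier results of these data known. Per the file headers, the deposited spot intensities were background-subtracted and detrended array by array in Agilent Feature Extraction 11.0.1.1. A log2 table deposited by the authors covers 60641 probes, by steps that no source used here gives; it lacks the repeated probes, so it gave counts only. Accessions were named through RefSeq (GRCm38.p6); 46 of 50 repeated probes matched. Named were the 5 members and, for each, the 2 most alike genes; Apoe and Mbp were named as markers, and Duox1 after its values were seen. Log2 processed intensity minus the 75th percentile of each array (control and non-uniform spots left out) was averaged over spots. Probes well above background (at least 0.5 of spots) on 5 of 10 arrays were tested with limma 3.58.1 in R 4.3.3 (two-sided, Benjamini-Hochberg over 49363 probes, threshold 0.05), without and with the scan set. Array numbers limit the precision. Mean signals are not in the files, so normexp used median signals (offset 50). Alternatives were other scalings, background, spot summaries, filters, array weights and left-out arrays. Only the fit with group and scan set was run on simulated data. Replicate numbers are not shared between groups.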

Additional observations from a re-analysis of the deposited data

Results flagged for a closer look

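Of the 10 sets of 5 levels (5 genes in each group), 2 had an array far from the rest of its group. It was ethanol replicate 4 in both, the 1 ethanol array of scan set 1. Its distance to the next ethanol array, as a share of the range of that group, was 0.787 for Il2 and 0.922 for Gsdmd, above the limit of 0.71 for 5 samples. For 5 like samples chance marks about 1 set in 20. The ethanol arrays come from both scan sets, between which Il2 and Gsdmd differed by -2.37 and -2.32, so that rate does not apply here. The 10 sets also share their arrays. The Il2 level of ethanol replicate 4 was 4.13, and the other ethanol arrays reached 1.97. Its Gsdmd level was 1.83, and the other ethanol arrays reached -0.64. The 3 room air arrays of scan set 1 read 3.52 to 4.27 for Il2 and 1.31 to 1.83 for Gsdmd. For H2-Q7 and Mzb1 the same array was the lowest of its group, with gaps of 0.701 and 0.698 of the range, just under the limit.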

How the results depend on the processing

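Adjusted p-values are from limma. The planned fit without the scan set kept 0 called probes under its alternatives except array weights, which called 34856 probes and gave -2.05 for Il2, -1.97 for Gsdmd, 1.62 for H2-Q7 and 1.64 for Mzb1 (adjusted p from 1.82e-04 to 2.82e-04). Those weights were 0.13 for ethanol replicate 4, and 0.21 for room air replicates 5 and 9, the arrays in the scan set that holds fewer of their group; with array weights and the block together 0 probes were called, and Mzb1 was 0.091. Without the block, the sign turned for Il2, Gsdmd and Mzb1 with the block (0.064, 0.072 and -0.084) and within scan set 1 (0.24, 0.33 and -0.47). For H2-M2 it turned when arrays were scaled on only those probes that exceed background on each array (0.056) and with quantile normalization (0.0040).

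The blocked values, close to 0, turned sign for Il2 (-0.16), Gsdmd (-0.15) and H2-Q7 (-0.12) with no scaling between arrays, for Il2 (-0.0089) and Gsdmd (-0.0012) with median scaling, for Gsdmd with quantile normalization (-0.027) and for Mzb1 with normexp (0.10). With 1 array left out they ran from -0.035 to 0.13 for Il2, -0.073 to 0.17 for Gsdmd, 0.042 to 0.16 for H2-Q7, -0.27 to -0.080 for H2-M2 and -0.19 to 0.13 for Mzb1. Adjusted p over the alternatives with the block ran from 0.802 to 0.998 for Il2, 0.757 to 0.999 for Gsdmd, 0.554 to 0.972 for H2-Q7, 0.538 to 0.968 for H2-M2 and 0.746 to 0.994 for Mzb1. Without it, array weights aside, they were above the threshold throughout.

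Between scan sets the sign of Il2 and Gsdmd held under all alternatives run, from -3.26 to -1.86 and from -3.21 to -1.85. H2-Q7 and Mzb1 entered through scan set 2, so their constant sign is no support and no test is given. They were 0.29 and 0.49 with quantile normalization. H2-M2 passed after median scaling (-0.93) and turned to 0.43, which passed, when scaled on the always bright probes and to 0.29 with quantile normalization. With 1 array left out it ran from -0.16 to 0.033. Called probes were 24356 with the filter on all arrays, and 27312 to 43059 otherwise. That filter left no value for H2-Q7 and Mzb1, and the authors' value table none for any member. The causes were not tested. No paired analysis was possible because the groups share no replicate number. Precision is limited by 5 arrays a group, by 1 ethanol array in scan set 1 and by signal near background for H2-Q7 and Mzb1.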
